A study of Homo sapiens with 5 samples.

Results

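The genes described here are 9 members of the hypoxia response: VEGFA, HIF1A, EGLN1, BNIP3, BNIP3L, PDK1, P4HA1, NDRG1 and ADM. The list was chosen with earlier results of these data known, so shares of it that were called are descriptions and not tests. All bead array probes named for them in the platform annotation and detected on 2 or more arrays were taken. This gave 12 probes of 8 genes, out of 19105 probes tested and 11041 genes. Every one of the 12 probes was detected on all 5 arrays, so none rested on the detection limit, and PDK1 was not analysed here.

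The arrays were made from K562, an established human leukaemia cell line with features of early red cells. The study compared a stable line with a short hairpin RNA (shRNA) against JMJD1B (current symbol KDM3B, a demethylase of histone H3 lysine 9; 3 arrays, called knockdown here) with a stable line carrying a control shRNA, sh-CTL (2 arrays). Both lines use a Tet-on switch, and both received doxycycline (1 µg/ml) over 48 h, with 5% CO2 in the incubator and 5% serum in the medium. The labels name no low-oxygen treatment in either group, and do not say how many clones or hairpins stand behind a line or whether replicates were separate cultures, so p-values measure only the spread between these samples, which may be technical. No probe of JMJD1B was analysed here, and the groups rest on the labels alone.

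Cells read oxygen through prolyl hydroxylases such as EGLN1, which mark the alpha subunits of hypoxia-inducible factor (HIF) for destruction by the VHL ubiquitin ligase while oxygen is present. When oxygen falls, HIF1A protein is spared, pairs with ARNT and binds short DNA elements near genes for blood vessel growth, glucose use, mitochondrial clearance and collagen folding. HIF1A is thus controlled mainly as a protein, while most of the other members are read as its transcriptional targets, EGLN1 among them. In the red cell lineage, BNIP3L is also known for the removal of mitochondria as the cells mature.

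The core of the HIF element is ACGTG or GCGTG, and the stretches below are printed because they hold that core close to the start of members measured here. RefSeq promoters (GRCh38.p14) were searched on both strands over the 250 bases before each annotated start, with overlapping matches all counted. Of the 9 members, 6 had at least 1 start in that table, and each of these 6 held at least 1 match. Counted by start, 6 of their 8 starts did, since 1 start each of HIF1A and PDK1 held none. The match of HIF1A, a GCGTG that begins 204 bases before its other start, lies farther out and is not printed. The background is high, since 43.2% of the 35116 promoters searched held either core, 18.5% ACGTG and 32.2% GCGTG. BNIP3 held 6 matches, a number reached or passed by 0.65% of all promoters. Their first bases lay between 143 and 104 bases before its start. The 2 ACGTG matches among them overlap, being CACGTG read on both strands. A match is a description of letters and not a measured binding site. Capitals mark the matched core or its reverse complement, each stretch runs 5′ to 3′ on the strand of the gene, and the arrays give no coordinates of their own.
BNIP3 (chr10:131981983-131982106, minus strand): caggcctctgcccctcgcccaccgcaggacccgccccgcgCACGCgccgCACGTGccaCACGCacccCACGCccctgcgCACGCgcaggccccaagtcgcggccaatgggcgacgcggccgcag
P4HA1 (chr10:73096908-73096992, minus strand): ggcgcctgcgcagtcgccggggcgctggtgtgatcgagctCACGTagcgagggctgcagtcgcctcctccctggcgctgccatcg
EGLN1 (chr1:231422288-231422340, minus strand): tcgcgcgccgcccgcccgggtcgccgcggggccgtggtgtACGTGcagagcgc
ADM (chr11:10304932-10305016, plus strand): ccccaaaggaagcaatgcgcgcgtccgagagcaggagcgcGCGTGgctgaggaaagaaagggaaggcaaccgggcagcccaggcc

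Of the 12 probes, 1 passed the threshold, a Benjamini-Hochberg adjusted p under 0.05 in limma over all probes tested. It was a probe of VEGFA and was lower in the knockdown. That is 8.33% of the probes of these genes, against 5.07% of all 19105 probes in either direction, 2.35% towards higher and 2.72% towards lower. At an unadjusted p under 0.05 in limma, 3 of the 12 probes passed, or 25% against 21.2% of all probes. The differences of the 12 probes, as knockdown minus control on a log2 scale of signal plus 16, ran from -0.27 to 0.17. Of these, 6 lay above 0 and 6 below, and their median was 0.01, against -0.0013 over all probes. Groups did not overlap for 2 probes that were higher in the knockdown (16.7%, against 17.6% of all probes) and for 3 that were lower (25%, against 20.2%), so these shares lay near the background. The members thus lay on both sides of 0, and VEGFA and ADM had the lowest differences.

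**Figure D1:**
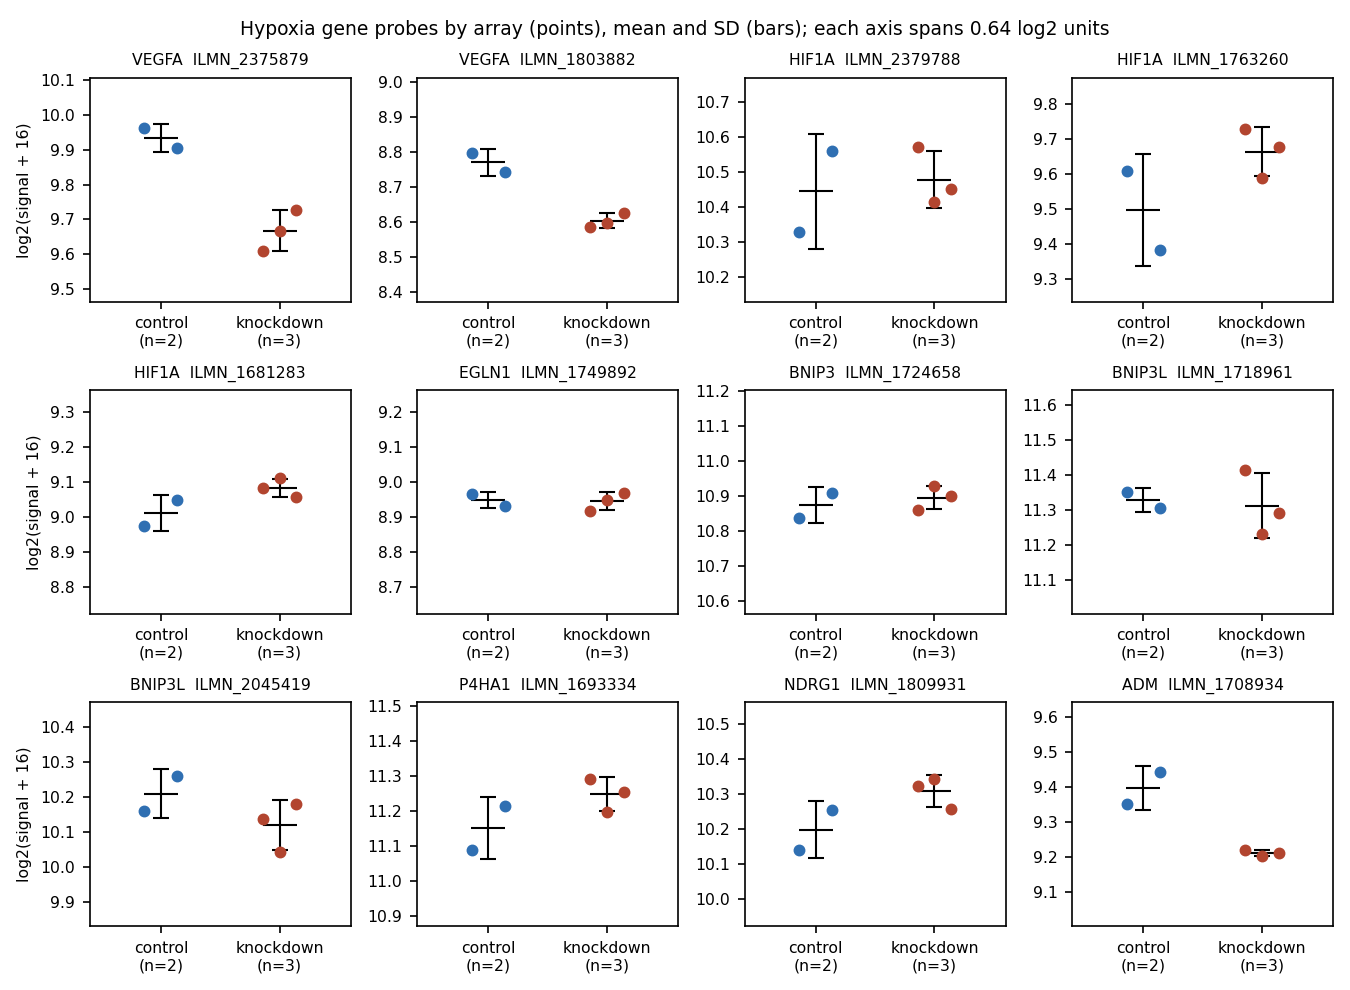
Level of each of the 12 probes on each array, as log2 of signal plus 16 after quantile normalization, with control arrays in blue and knockdown arrays in red. Horizontal bars are means and whiskers are the SD, and each vertical axis covers the same span, so that the gap of 0.27 for VEGFA on probe ILMN_2375879 can be set against the gaps near 0 for EGLN1 and BNIP3.

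VEGFA encodes the secreted growth factor that drives the formation of blood vessels, and it was lower in the knockdown on both of its probes. On probe ILMN_2375879 the deposited signal was 823, 795 and 823 on the knockdown arrays and 947 and 925 on the control arrays. All 3 knockdown signals lay below both control signals, before any normalization. After normalization the log2 level was 9.67 ± 0.06 in the knockdown (SD, n = 3), against 9.93 ± 0.04 for the control (SD, n = 2). The difference of -0.27 ± 0.06 (standard error; 95% interval -0.40 to -0.13) is a 1.20-fold lower level and passed the test (limma adjusted p = 0.039). In whole cultures, fewer cells with the transcript and less transcript per cell cannot be told apart.

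The second VEGFA probe, ILMN_1803882, had signals of 393, 370 and 377 on the knockdown arrays and 417 and 404 on the control arrays. These groups did not overlap either, and both control signals were again the higher ones. The difference on it was -0.17 ± 0.06 (95% interval -0.30 to -0.04), which was not called (limma adjusted p = 0.14). With the signal of undetected probes (a median of 124.0) taken off first, the differences were -0.31 and -0.24 on the respective probes. The call on the first probe was narrow. It was lost with any 1 of the 5 arrays left out, with differences between -0.29 and -0.23 and adjusted p from 0.063 to 0.17.

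**Figure D2:**
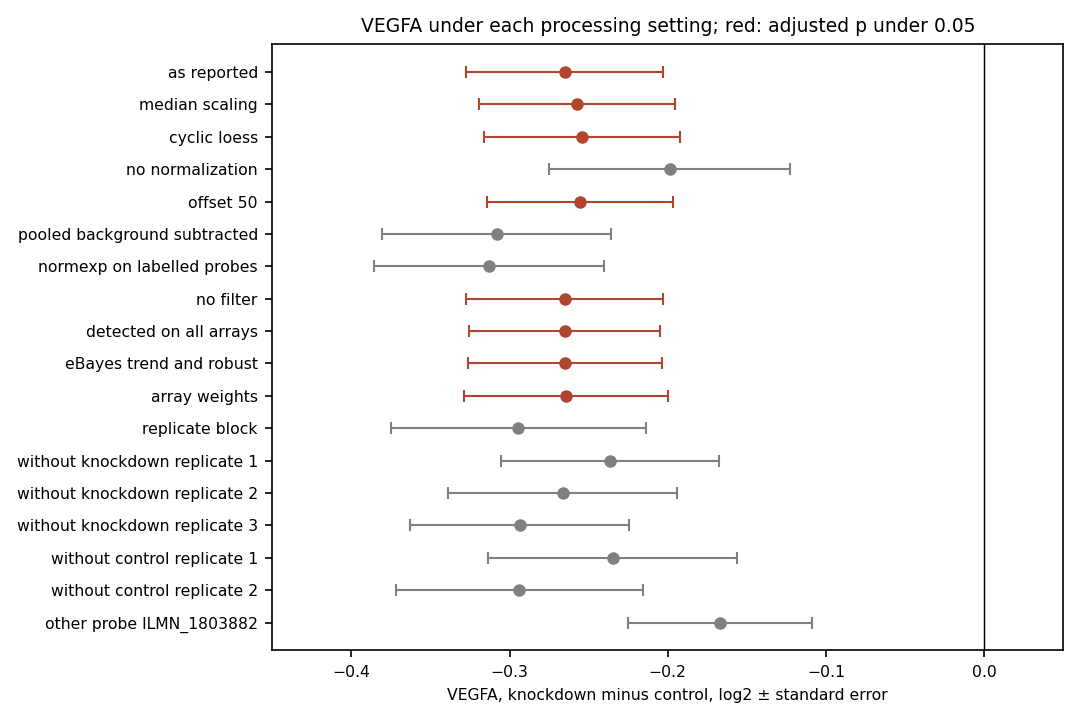
VEGFA difference, knockdown minus control on the log2 scale, with its standard error, under each processing setting on probe ILMN_2375879 and, in the lowest line, on the second probe. All values lie below 0, from -0.31 to -0.17, while the red points, with an adjusted p under 0.05, are the reported value and 7 of 17 alternatives.

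ADM encodes adrenomedullin, a secreted peptide that widens blood vessels and is induced by HIF. Its level was 9.22, 9.20 and 9.21 on the knockdown arrays and 9.35 and 9.44 on the control arrays on the log2 scale. Both control arrays lay above every knockdown array on this normalized scale. In the deposited signals they did not, since knockdown replicate 1 had 618 and control replicate 1 had 614. The difference of -0.19 ± 0.06 (95% interval -0.32 to -0.05) was not called over all probes (limma adjusted p = 0.11).

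HIF1A, the oxygen-regulated subunit of HIF, had 3 probes, and none was called. On probe ILMN_2379788 the levels were 10.57, 10.41 and 10.45 in the knockdown and 10.33 and 10.56 in the control, so the groups overlapped. On probe ILMN_1763260 they were 9.73, 9.59 and 9.68 in the knockdown and 9.61 and 9.38 in the control. On probe ILMN_1681283 they were 9.08, 9.11 and 9.06 against 8.97 and 9.05. Only on this last probe did every knockdown array lie above both control arrays. The differences were 0.03 ± 0.08, 0.17 ± 0.08 and 0.07 ± 0.06, with limma adjusted p = 0.86, 0.25 and 0.54. The sizes moved with the control array left out. Probe ILMN_1763260 was at 0.28 without control replicate 1 and 0.055 without control replicate 2, and probe ILMN_1681283 at 0.036 and 0.11. The intervals reach up to 0.34 on probe ILMN_1763260 and down to -0.15 on probe ILMN_2379788. They rest on the spread between these samples, with the background still in the values, and do not bound the change in HIF1A transcript. The arrays carry no information on HIF1A protein, where its oxygen control is known to act.

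EGLN1, the prolyl hydroxylase that marks HIF1A, had levels of 8.92, 8.95 and 8.97 in the knockdown and 8.96 and 8.93 in the control. The groups lay on top of each other. The difference was -0.0032 ± 0.06 (95% interval -0.13 to 0.12; limma adjusted p = 0.98).

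BNIP3 and BNIP3L encode outer mitochondrial membrane proteins that recruit the autophagy machinery to mitochondria. BNIP3 had levels of 10.86, 10.93 and 10.90 in the knockdown and 10.84 and 10.91 in the control, a difference of 0.02 ± 0.06 (95% interval -0.11 to 0.15; limma adjusted p = 0.88). The groups overlapped, and the same held for BNIP3L, with differences of -0.02 ± 0.07 on probe ILMN_1718961 and -0.09 ± 0.07 on probe ILMN_2045419 (limma adjusted p = 0.93 and 0.49). The latter was -0.14 without control replicate 1 and -0.039 without control replicate 2. Probe ILMN_1718961 varied most on the knockdown side, with 11.41, 11.23 and 11.29 against 11.35 and 11.30 in the control.

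P4HA1 encodes the catalytic subunit of the enzyme that hydroxylates proline in collagen. Its level was 11.29, 11.20 and 11.25 in the knockdown and 11.09 and 11.21 in the control, so that 1 control array lay within the knockdown range. The difference of 0.10 ± 0.06 was not called (95% interval -0.05 to 0.24; limma adjusted p = 0.44), and was 0.033 without control replicate 1 and 0.16 without control replicate 2. NDRG1 encodes a cytoplasmic stress protein that is commonly used as a marker of hypoxia. It had 10.32, 10.35 and 10.26 in the knockdown and 10.14 and 10.26 in the control, and the lowest knockdown array lay just above the higher control array. The difference of 0.11 ± 0.06 (95% interval -0.03 to 0.25) was not called either (limma adjusted p = 0.36), and was 0.053 and 0.17 without these same arrays.

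**Figure D3:**
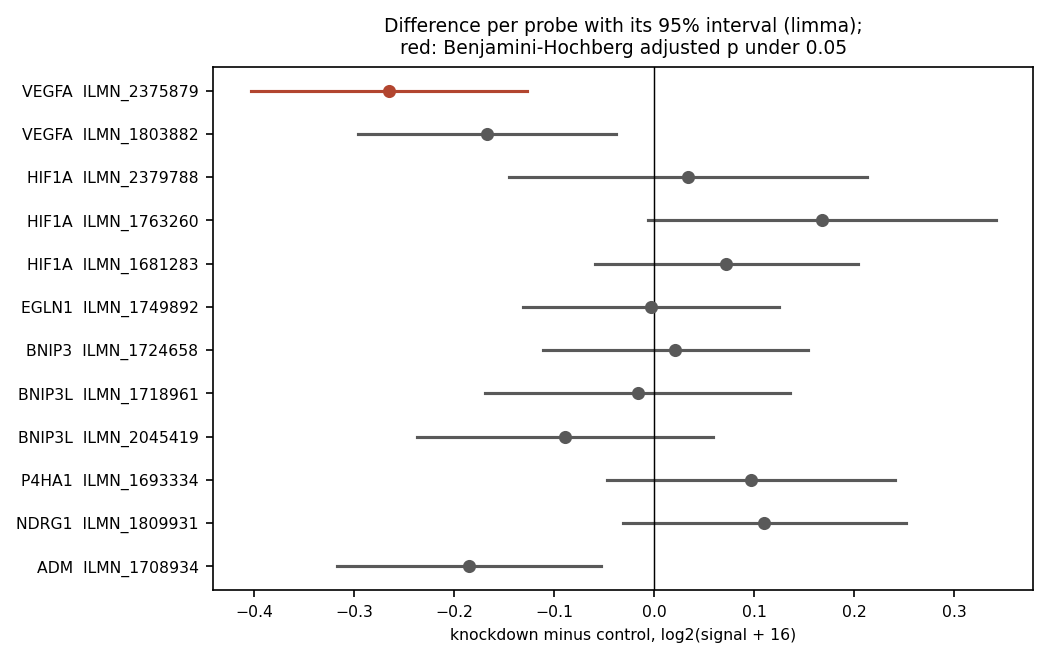
Difference of each probe, knockdown minus control on the log2 scale, as a point with its 95% interval from limma, in red where the adjusted p over all probes was under 0.05. The intervals of VEGFA and ADM lie wholly below 0, and those of the remaining probes, from -0.24 at the lowest to 0.34 at the highest, cover 0.

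The members were then set beside 9 lists of pathway genes, most of which also hold 1 or more members. These lists, too, were chosen with earlier results of these data known, and their shares are descriptions. Each gene stood as its probe with the highest mean level. Without the members these lists hold 125 genes, of which 91 were measured. Of the 91, 2 were called higher and 8 lower by limma, or 11% against 6.27% of all 11041 genes (2.56% higher and 3.7% lower). At an unadjusted p under 0.05 in limma, 21 of the 91 passed, against 24% of all genes. Their median difference was -0.02 against -0.01 over all genes, so the medians lay close together. Of the 91, 36 lay above 0 and 55 below. The split of all genes was not counted, but their median also lay below 0. Of the 10 calls, NDRG4 and PDK4 held under all 16 alternatives, and with them AK4 and CITED2 held with any 1 array left out. NDRG4, PDK4 and VEGFB came from the lists of relatives and partners of NDRG1, PDK1 and VEGFA. They are not in the lists of HIF target genes.

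Among 7 measured HIF subunits and cofactors, HIF1A included, 1 rose and 1 fell, or 28.6% against 6.27% of all genes (median -0.02). CITED2, which competes with HIF1A for the coactivators EP300 and CREBBP, rose by 0.48 ± 0.07 (limma adjusted p = 0.0052). Its level was 11.21, 11.13 and 11.26 in the knockdown and 10.63 and 10.80 in the control. The groups stood well apart. EPAS1, the HIF-2 alpha subunit that also answers to EGLN1, fell by 0.31 ± 0.06 (limma adjusted p = 0.015), with 10.51, 10.49 and 10.46 against 10.82 and 10.78. The EPAS1 call was lost without 4 of the 5 arrays, each left out singly, with adjusted p from 0.054 to 0.086.

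Oxygen sensors and the VHL ligase, EGLN1 included, had 0 of 7 measured genes called by limma, against 6.27% of all genes. At an unadjusted p under 0.05 in limma 0 passed, against 24% of all genes. The list median of -0.0032 is the value of EGLN1. The smallest p-values were those of EGLN2, a second HIF prolyl hydroxylase, at -0.12, and ELOC, a subunit of the VHL ligase, at 0.07 (limma adjusted p = 0.29 and 0.58). ELOC was at 0.018 without control replicate 1 and 0.11 without control replicate 2. Of 5 measured genes for VEGF and adrenomedullin ligands and receptors, VEGFA and ADM included, 2 fell, or 40% against 6.27% of all genes. The list median of -0.19 is the value of ADM, and NRP1 and RAMP2 were at 0.06 and 0.08. The 2 calls were VEGFA, already given above as a member, and VEGFB, a ligand of the VEGF receptor FLT1. VEGFB had 12.41, 12.36 and 12.39 in the knockdown and 12.71 and 12.69 in the control on probe ILMN_1726981, and fell by 0.32 ± 0.06 (limma adjusted p = 0.014). On its second probe, ILMN_1722855, it fell by 0.23 ± 0.06 (limma adjusted p = 0.047). The first call was lost without knockdown replicate 2 or either control replicate, with adjusted p from 0.066 to 0.075. The further 9 genes of that list were not analysed here, FLT1 and KDR among them.

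Mitophagy genes, BNIP3 and BNIP3L included, had 0 of 13 called by limma, against 6.27% of all genes. At an unadjusted p under 0.05 in limma 1 passed, against 24% of all genes, and the median was -0.02. PINK1, the kinase that marks damaged mitochondria, was at -0.16, and PHB2, an inner membrane receptor for autophagy, at 0.11 (limma adjusted p = 0.16 and 0.34). Of 10 genes of the pyruvate dehydrogenase complex and its kinases, 1 fell (10%, against 6.27% of all genes) and the median was -0.05. It was PDK4, a kinase that shuts off pyruvate dehydrogenase as PDK1 does. PDK4 had 8.03, 8.12 and 8.00 in the knockdown and 8.54 and 8.52 in the control, with no overlap. It fell by 0.48 ± 0.06 (limma adjusted p = 0.0024), a 1.40-fold lower level before any background was taken off. With the pooled background subtracted the difference was -0.81, and with normexp it was -0.87. PDP1, the phosphatase that opposes these kinases, was at 0.30 ± 0.07 and just missed the threshold (limma adjusted p = 0.050). It was named after its value was seen, and 5 of 16 alternatives called it.

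Collagen-modifying enzymes, P4HA1 included, had 0 of 7 called by limma, against 6.27% of all genes. At an unadjusted p under 0.05 in limma 0 passed, against 24% of all genes (median -0.01). P4HB, the partner subunit of P4HA1, was at 0.13, and P4HA2, an alternative catalytic subunit, at -0.17 (limma adjusted p = 0.25 and 0.27). The P4HA2 value was -0.039 without control replicate 1 and -0.30 without control replicate 2. In the NDRG family, NDRG1 included, 1 of 4 fell, or 25% against 6.27% of all genes. It was NDRG4, which fell by 0.74 ± 0.07 (limma adjusted p = 0.00021), while NDRG1 was at 0.11 as given above.

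Of 27 other HIF target genes measured, 1 rose and 2 fell, or 11.1% against 6.27% of all genes, with a median of -0.01. AK4, a mitochondrial adenylate kinase, fell by 0.52 ± 0.07 on probe ILMN_1843198, from 9.49 and 9.67 in the control to 9.07, 9.07 and 9.04 (limma adjusted p = 0.0027). Its 3 further probes were at -0.19, -0.17 and 0.01 and were not called. Both the size of the change and whether any was seen thus depend on the probe. STC2, a secreted glycoprotein of calcium and phosphate balance, fell by 0.35 ± 0.07, and MIF, a secreted cytokine, rose by 0.25 ± 0.06 (limma adjusted p = 0.018 and 0.036). The STC2 call was lost with any of 4 arrays left out singly, with adjusted p of up to 0.11, and the MIF call with any of the 5, with adjusted p of up to 0.13. KDM3A, a HIF target and a close relative of JMJD1B, was at 0.21 ± 0.09 with overlapping groups and was not called (limma adjusted p = 0.20). It was named after its value was seen.

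Of 19 glycolytic HIF targets, 2 fell, or 10.5% against 6.27% of all genes, and the median was -0.02. SLC2A1, the main glucose transporter of red cells, fell by 0.33 ± 0.06, and HK2, a hexokinase, by 0.31 ± 0.07 (limma adjusted p = 0.018 and 0.035). The second probe of HK2 was at -0.16 and was not called. SLC2A1 lost its call with any of 3 arrays left out singly and HK2 with any of 4, with adjusted p of up to 0.11 and 0.14.

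**Figure D4:**
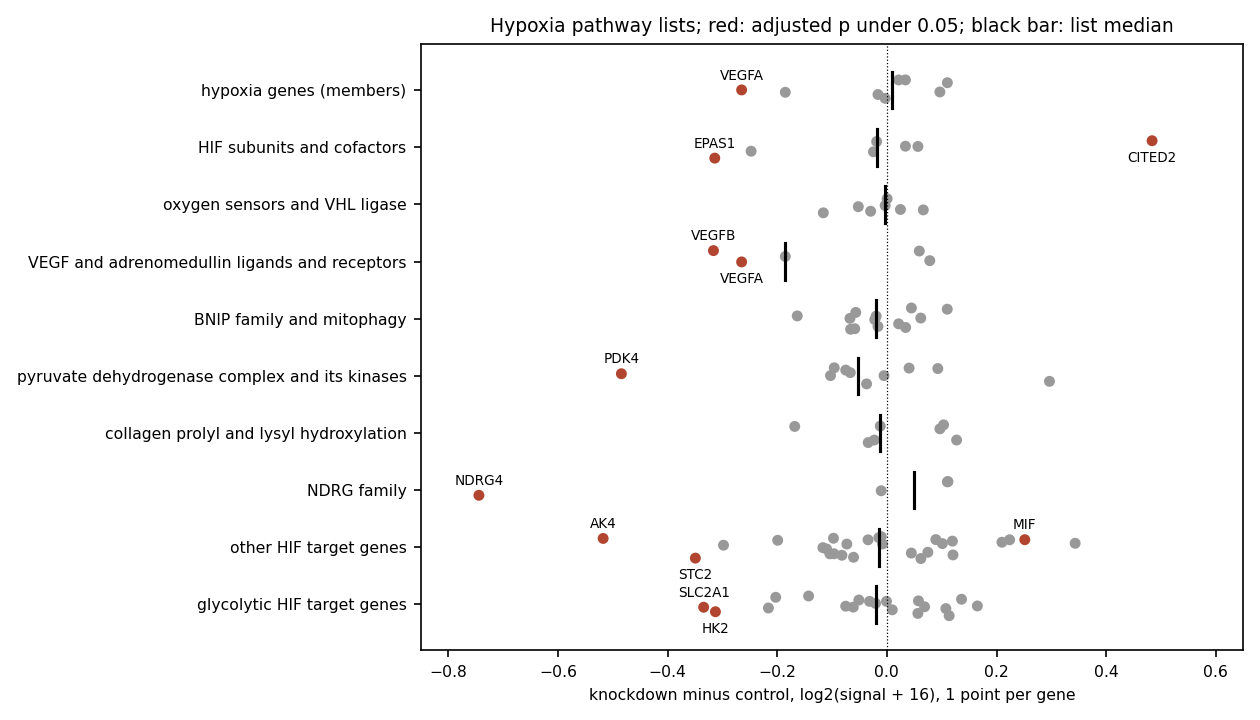
Knockdown minus control on the log2 scale for each measured gene of the 8 hypoxia genes and of the 9 pathway lists, some of which share genes with the first line. Red points passed an adjusted p of 0.05 and are named, and black bars are list medians between -0.19 and 0.05.

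The array pattern of VEGFA was also set against all other genes. By the root mean square distance of the 5 array values, each centred on its own mean, the nearest genes were TMEM127 (0.013), SLC7A5 (0.016), EXOC7 (0.017), HELZ2 (0.017) and FAM216A (0.018). Their differences ran from -0.28 to -0.26, close to that of VEGFA, as the choice by distance entails. None of these 5 is in the hypoxia lists used here.

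As to the arrays as a whole, 449 probes were called higher and 519 lower, so that 46.4% of the calls were higher, against 83.8% with the deposited signals left without normalization. Median signals ran from 455.6 to 498.6 per array, with knockdown replicate 1 the brightest. Across probes, the SD of the log2 difference between a pair of arrays was 0.12 to 0.13 within a group and 0.17 to 0.18 between groups. Of 9 genes that mark K562 as an erythroid leukaemia line, 8 were measured. The fetal globin HBG1 stood at 15.98 in both groups, while the embryonic globin HBZ fell by 0.56 (limma adjusted p = 0.0015). No other marker of this list was called. GATA1, KLF1, EPOR and HBG2 were at 0.11, 0.08, 0.01 and 0.01, and HBE1 and TAL1 at -0.15 and -0.02. The log2 of the summed linear levels of these 8 genes was 17.25 to 17.28 in the knockdown and 17.31 to 17.34 in the control. HBG1 and HBG2 had the highest levels in this sum. Of 6 lymphocyte markers 3 were measured. The log2 of their summed linear levels was 11.61 to 11.69 in the knockdown and 11.28 to 11.41 in the control. Most of this sum was CD3D, at 11.47 in the knockdown and 11.09 in the control. CD3D rose by 0.38 (limma adjusted p = 0.012), whereas CD2 and CD79A were at -0.18 and -0.04 and were not called (limma adjusted p = 0.30 and 0.86). Monocyte markers (3 of 4 measured) and markers of epithelium, fibroblasts and endothelium (3 of 7) had overlapping summed levels. The part of these markers in the hypoxia gene values was not tested.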

How the data were processed

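Bead arrays measured RNA in 5 K562 samples. The authors deposited linear signal intensity, not normalized as far as the values show. Per the submitters' processing notes the software was GenomeStudio 2009.2, with settings not given in the sources used here. A larger deposited table holds the same intensity values for 47321 probes with a detection p-value each, per the file headers. Its 10 value columns match no sample name, so they served only as a key, for detection and for a pooled background. Probe IDs beside the 19144 labelled rows are out of order, with 47 in place. Each row was named by the 1 probe of the larger table with the same 5 signals. Symbols come from the platform annotation, updated through RefSeq.

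Signals plus 16 were put on log2 and quantile normalized with limma 3.58.1 in R 4.3.3, and 19105 probes with a detection p-value under 0.05 on 2 or more arrays were fitted with group as the only term (3 residual degrees of freedom, 10.1 with the prior). The background is still in these values, so fold changes understate the change of dim genes. Precision is limited by the number of arrays (median standard error 0.07). Alternatives changed normalization, offset, background, filter, variance model, array weights, the replicate block and single arrays. Members and lists were chosen with earlier results of these data known. Every gene past the threshold in a pathway list is named, or the 2 with the smallest p where none passed.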

Additional observations from a re-analysis of the deposited data

How the results depend on the processing

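VEGFA stayed below 0 under all 17 alternatives, and its call held under 7: array weights, trend and robust options, both other filters, the offset of 50, cyclic loess and median scaling. It was lost without normalization (-0.20), with the pooled background subtracted (-0.31), with normexp on the labelled probes (-0.31), with the replicate block (-0.29), on the second probe (-0.17) and with 1 array left out (-0.29 to -0.23). The mean of its 2 probes gave -0.22 (limma adjusted p = 0.034). The 11 other member probes were called under no alternative, and 7 of them kept their sign. EGLN1 turned with median scaling (0.0033), cyclic loess (0.0094) and no normalization (0.062), and BNIP3L on probe ILMN_1718961 with median scaling (0.0038) and no normalization (0.062). With 1 array left out, these ran from -0.020 to 0.014 and from -0.068 to 0.024, HIF1A on probe ILMN_2379788 from -0.083 to 0.15 and BNIP3 from -0.014 to 0.058.

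Counts left the range of 1.5 times under the same settings, except the 7 pathway genes called without knockdown replicate 1 or 3. Without normalization 791 probes were higher and 153 lower (479 and 116 genes), with 0 member probes and 6 pathway genes called. With the background subtracted these were 130 and 92 (86 and 70 genes), 0 and 3, and with normexp 95 and 52 (64 and 40 genes), 0 and 2. With the replicate block they were 194 and 145 (126 and 112 genes), 0 and 5. With 1 array left out they were 176 to 239 and 131 to 216 (116 to 154 and 98 to 167 genes), 0 and 3 to 7. The cause was not tested, and the last case also has fewer samples. The labels do not say whether same-numbered samples belong together. Deviations from the group means had r = -0.22 and -0.09 across probes for same-numbered arrays. With 2 controls their deviations mirror each other, so these correlations cannot decide whether the samples were paired.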

Other observations

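The 3 HIF1A probes ordered the control arrays differently. Control replicate 1 was lower than control replicate 2 by 0.23 on probe ILMN_2379788 (10.33 and 10.56), higher on probe ILMN_1763260 (9.61 and 9.38) and lower on probe ILMN_1681283 (8.97 and 9.05). The SD within the control was 0.16 on each of the first 2 probes, against 0.02 to 0.09 for the control on the other member probes. This was seen after the values were known and no test was made of it.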
